A study of Rattus norvegicus with 6 samples.

Results

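Collagens were examined in bulk RNA-seq read counts of 6 mammary tumors from F344 rats, an inbred strain used in aging research. The collagen genes were chosen by name alone, as every row whose symbol consists of Col, a type number, the letter a and a chain number, and 44 of the 30562 rows of the count table matched. The older group held tumors 102, 107 and 116 (n = 3) and the younger group tumors 157, 158 and 167 (n = 3), each tumor a single library. Older rats came from colonies of the National Institute on Aging, at an age of 19 to 21 months, and younger rats from a commercial breeder, Envigo, at 6 to 8 weeks, so age and supplier cannot be told apart. All rats of both groups received a subcutaneous pellet of 50 mg of medroxyprogesterone acetate (MPA, a progestin) that released for 90 days, and then a single gavage of 65 mg per kg of 7,12-dimethylbenz[a]anthracene (DMBA, a carcinogen). All tumors that arose in younger rats were sequenced, whereas those of the older rats were part of a larger number, taken for having adequate tissue. Both groups had aged further by the time of treatment. Nothing in the labels ties the tumors to separate batches, and p-values measure the spread between these tumors only.

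Collagens are secreted proteins built from chains that wind around each other in a helix, and together they form most of the fibrous scaffold of connective tissue. Fibrillar collagens assemble into the cable-like fibrils of the stroma and are made mainly by fibroblasts. Type IV collagen forms the sheet-like network of basement membranes, which lie under mammary epithelium and around vessels, and which invading carcinoma cells must cross. The remaining types decorate fibrils, anchor epithelium or form filaments. Types I, II, III, V, XI, XXIV and XXVII were grouped here as fibrillar (11 genes), types IV, XV and XVIII as basement membrane (8 genes) and all others as other collagens (25 genes).

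Library totals ran from 3508571 to 6525830 counts, and a gene with 3 counts corresponded to between 0.53 and 1.03 CPM (counts scaled to a common library size with TMM factors). The 3 casein genes took between 0.617% and 14.7% of the named counts of a tumor. Epithelial markers were present in every tumor, with Epcam, an epithelial adhesion protein, at 300 to 499 CPM and Krt8, a luminal keratin, at 100 to 337 CPM. In bulk tissue, fewer cells of a type and less RNA per cell cannot be told apart.

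Collagen transcripts together took 0.258% of the named counts in tumor 102, 0.361% in tumor 107 and 0.237% in tumor 116, and 0.678% in tumor 157, 0.398% in tumor 158 and 0.231% in tumor 167. The share was 0.286% ± 0.0666 (SD, n = 3) in older tumors and 0.436% ± 0.226 (SD, n = 3) in younger ones. The groups overlapped, since younger tumor 167 had the lowest share of all, and without tumor 157 the difference of -0.15 percentage points shrank to -0.0291. Of the 44 collagens, 37 had enough counts to be tested and 7 did not. By the quasi-likelihood test of edgeR, adjusted over 13139 genes by the Benjamini-Hochberg method, 0 of the 37 had an adjusted p under 0.05 between older and younger tumors, and neither had any other gene (0% of all genes tested). The smallest adjusted p of a collagen was 0.433.

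At an unadjusted p under 0.05, 2 of the 37 collagens (5.41%) were counted, Col2a1 and Col4a5, both lower in older tumors, whereas 8.59% of all genes tested were, 5.3% higher and 3.29% lower. This count was 8 without older tumor 107 (8.28% of all genes in that fit), 4 without older tumor 102 (7.28%), 3 without older tumor 116 (10.6%) and 6 without younger tumor 167 (8.28%). It was 1 without younger tumor 157 (5.85%) and 1 without younger tumor 158 (8.83%). Limma-voom also counted 2 (6.76% of all genes). DESeq2, which gave no p-value for Col6a5, counted 3 at an unadjusted p under 0.05 (10% of all genes). It called 1 at an adjusted p under 0.05, Col2a1, where DESeq2 called 2.48% of all genes, 1.67% higher and 0.814% lower in older tumors. By sign alone, 25 of 37 log2 fold changes were below 0 (67.6%), against 50.4% of all genes tested. With 1 tumor left out, this number was lowest without younger tumors 158 (21 of 37) and 157 (22 of 38). It was highest, 28 of 38, without tumor 102 and without tumor 167. The median log2 fold change was -0.37 over the collagens and -0.0039 over all genes tested. By class, the median was -0.37 for the 10 fibrillar genes tested, -0.96 for the 8 basement membrane genes and 0.13 for the 19 other collagens. With 1 tumor left out, the median over the collagens ran from -0.81 without tumor 167 to -0.12 without tumor 157, and that of the basement membrane genes from -1.46 without tumor 107 to -0.59 without tumor 157. The fibrillar median turned to 0.04 without younger tumor 157, and the median of the other collagens to -0.64 without older tumor 102. In 3 of the 37 collagens (8.11%) all older tumors lay below all younger ones, and in 0 above; among all genes tested 5.58% lay wholly below and 6.51% wholly above.

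**Figure D1:**
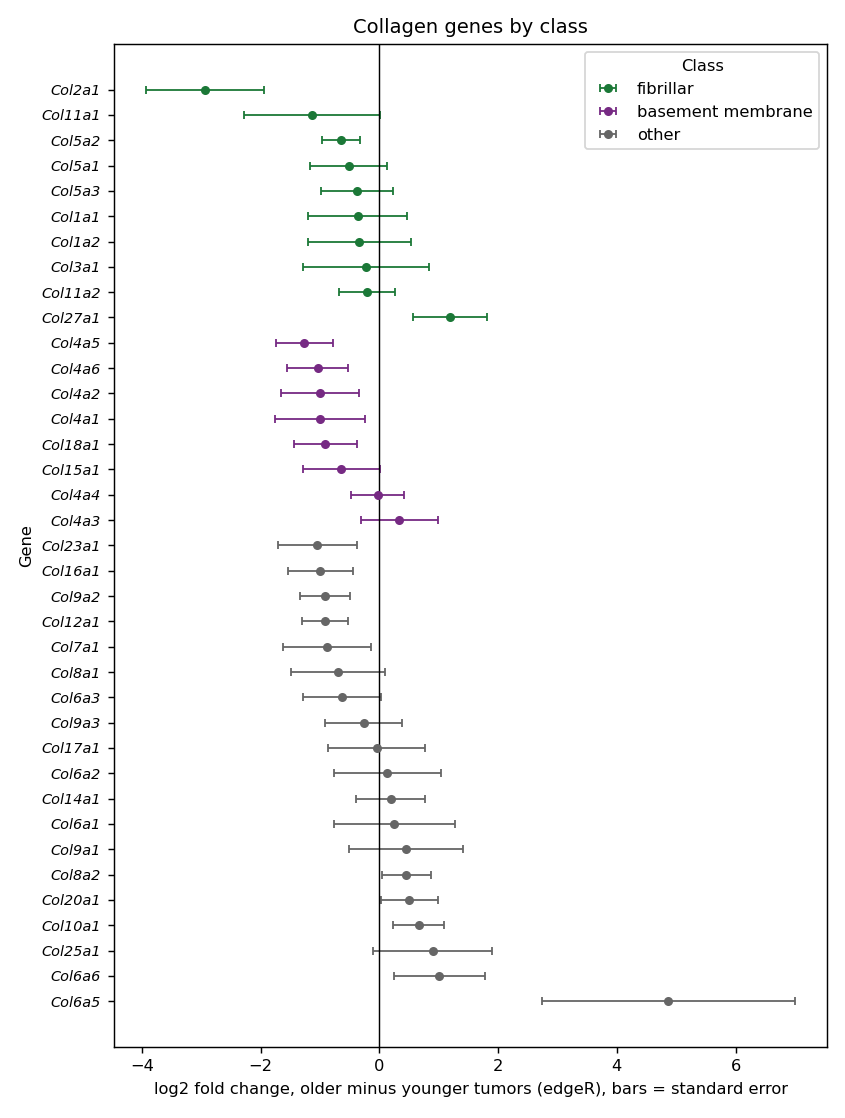
Log2 fold changes of the 37 tested collagens, older minus younger tumors (horizontal axis, edgeR), with bars of 1 SE and colors for the 3 classes. Values run from -2.94 for Col2a1 to 4.87 for Col6a5, and 7 of the 8 basement membrane genes lie below 0.

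The collagen levels singled out particular tumors within each age group. Tumor 157 had the highest CPM for 14 of the 37 tested collagens, tumor 158 for 8, tumor 102 for 7, tumor 107 for 4, tumor 116 for 3 and tumor 167 for 1. Tumor 102 had the lowest CPM for 13, tumor 167 for 8, tumor 116 for 7, tumor 107 for 5, tumor 158 for 3 and tumor 157 for 1. Tumor 102 was thus often at an extreme, high among the older tumors for types I, III and VI and the lowest of all tumors for 3 of the 6 type IV chains.

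**Figure D2:**
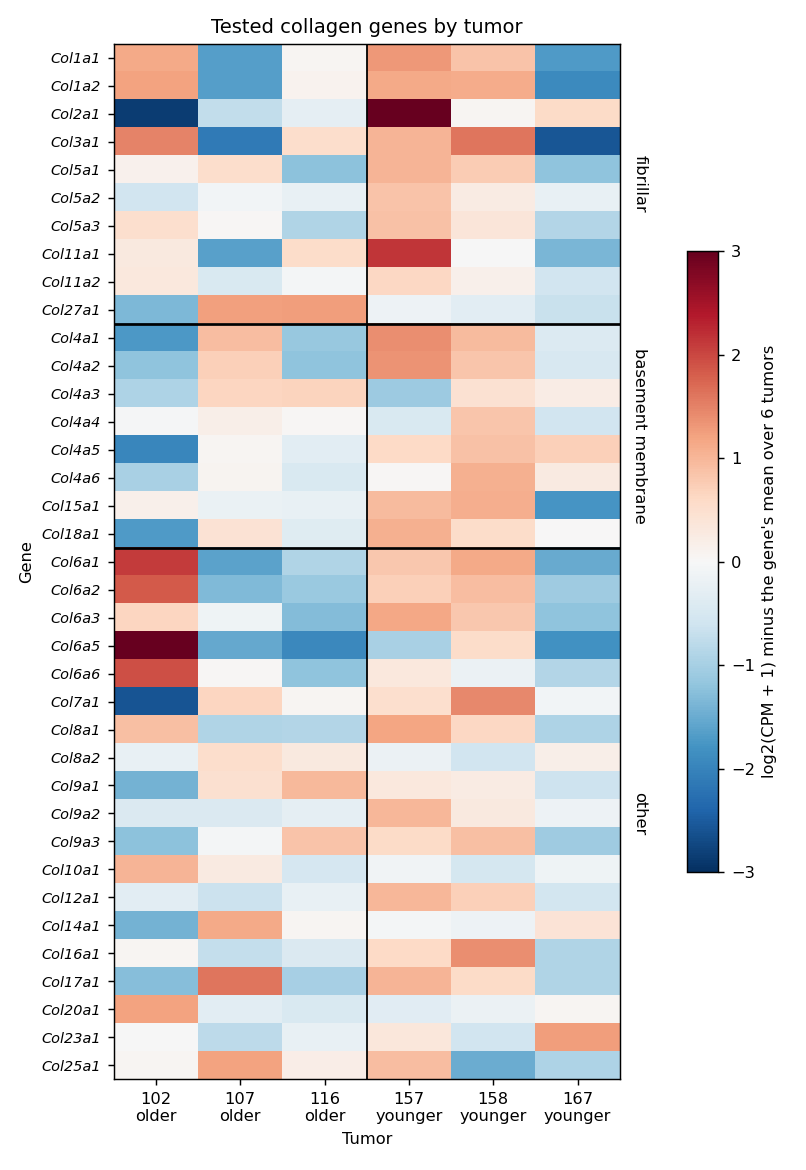
Heat map of the 37 tested collagens (rows, by class) in the 6 tumors (columns), colored by log2(CPM + 1) minus the gene's mean over the tumors, where values beyond the ends of the scale take the end color. Types I and III are low in tumors 107 and 167, of different age groups, while tumor 102 is high for type VI and low for Col4a1, Col4a5 and Col7a1.

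Types I and III, the main fibril-forming collagens of stroma, separated the tumors without regard to age. Col1a1, which encodes the alpha 1 chain of type I, was at 475 CPM in tumor 102, 68.2 in tumor 107 and 226 in tumor 116, and at 536 in tumor 157, 389 in tumor 158 and 65.7 in tumor 167. Its partner chain Col1a2 was at 233, 31.6 and 108 CPM in older tumors 102, 107 and 116 and at 223, 221 and 26.2 CPM in younger tumors 157, 158 and 167. For both chains, tumors 107 and 167 were the lowest pair, and the range over the 6 tumors was 8.16-fold for Col1a1 and 8.92-fold for Col1a2. Col3a1, whose chain forms type III fibrils in distensible tissue, was at 325, 25.7 and 166 CPM in older tumors and at 233, 351 and 18.5 CPM in younger tumors, in the same order of tumors. It spanned 19.0-fold, again with tumors 107 and 167 at the bottom. The log2 fold changes, older minus younger, were -0.37 for Col1a1 (standard error, SE, 0.84), -0.34 for Col1a2 (0.87) and -0.23 for Col3a1 (1.06), all within their SEs (adjusted p from 0.955 to 0.979, edgeR). Without tumor 102 these values were -1.17, -1.17 and -1.08.

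The summed level of fibroblast markers was also lowest in tumors 107 and 167, though not for each marker. The summed level of 8 fibroblast genes (Pdgfra, Pdgfrb, Thy1, Dcn, Lum, Dpt, Pi16 and Fbln1) was 458 CPM in tumor 102, 73.9 in tumor 107 and 164 in tumor 116, and 157 in tumor 157, 148 in tumor 158 and 60.7 in tumor 167. All 8 were tested, 0 had an unadjusted p under 0.05, none was at 0 in all tumors, and 5 were highest in tumor 102. The low sum of tumor 107 came mainly from Dcn (2.27 CPM), a small proteoglycan that binds collagen fibrils, and Pdgfra (0.909 CPM), whereas Thy1 was highest there (27.5 CPM) and Pdgfrb (33.0 CPM) and Pi16 (5.68 CPM) were above tumor 116. Their part in the type I and III levels was not tested.

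Type V collagen, which joins type I in mixed fibrils and limits their diameter, varied less in 1 of its chains. Col5a2 was at 68.5, 97.3 and 88.1 CPM in older tumors 102, 107 and 116 and at 188, 122 and 87.4 CPM in younger tumors 157, 158 and 167. The groups overlapped only through tumor 167, and the log2 fold change was -0.65 (SE 0.32, adjusted p = 0.671, edgeR). Col5a1 was at 29.9, 39.8 and 11.01 CPM in older tumors and at 56.6, 46.9 and 11.4 CPM in younger tumors. Col5a3 was at 11.7, 8.18 and 3.80 CPM in older tumors and at 15.7, 10.7 and 3.95 CPM in younger tumors. Both were lowest in tumors 116 and 167, of different age groups, unlike type I, and their log2 fold changes were -0.51 and -0.38 (SEs 0.64 and 0.61).

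Col2a1, the type II collagen of cartilage, gave the smallest p of the collagens. It was at 11.4 CPM in tumor 102, 52.3 in tumor 107 and 73.1 in tumor 116, and at 829 in tumor 157, 91.9 in tumor 158 and 132 in tumor 167. All older tumors lay below all younger ones, but tumor 157, with 4690 counts, stood far above the other 5. The log2 fold change was -2.94 (SE 0.99, unadjusted p = 0.0189, adjusted p = 0.433, edgeR), and it was -1.29 without tumor 157 (unadjusted p = 0.102, adjusted p = 0.973). DESeq2 called Col2a1 with all tumors (adjusted p = 0.0288), but not without tumor 157 (0.81), 102 (0.115) or 107 (0.086). Cartilage and bone markers had few counts: over the 6 tumors together Acan, the main cartilage proteoglycan, had 21 counts, Comp 26, Matn3 33, the osteoblast factor Sp7 5 and the bone protein Ibsp 18. The summed level of all 7 such markers was 22.2 to 35.9 CPM in older and 14.9 to 60.2 CPM in younger tumors, most of it from Runx2 and, in tumor 158, from Bglap, and tumor 157 had the lowest sum. At these few counts Acan (1.24 CPM), Comp (1.24 CPM) and Matn3 (1.59 CPM) were each second highest in tumor 157, and their part in the Col2a1 values was not tested.

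The remaining fibrillar genes are those of types XI, XXIV and XXVII. Col27a1, a collagen of developing cartilage, was the only fibrillar gene tested with a log2 fold change above 0 (1.19, SE 0.62), with tumors 107 and 116 at 52.0 and 53.3 CPM and tumor 102 at 7.92, below all younger tumors. Col11a1, a partner of type II and of type V chains, ranged from 2 counts in tumor 107 to 106 in tumor 157, where Col2a1 was also highest. Col11a2 ranged from 4.69 CPM in tumor 167 to 12.02 CPM in tumor 157, and Col24a1, with 11 counts in all, was not tested. The relation of these genes to the Col2a1 values was not tested.

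**Figure D3:**
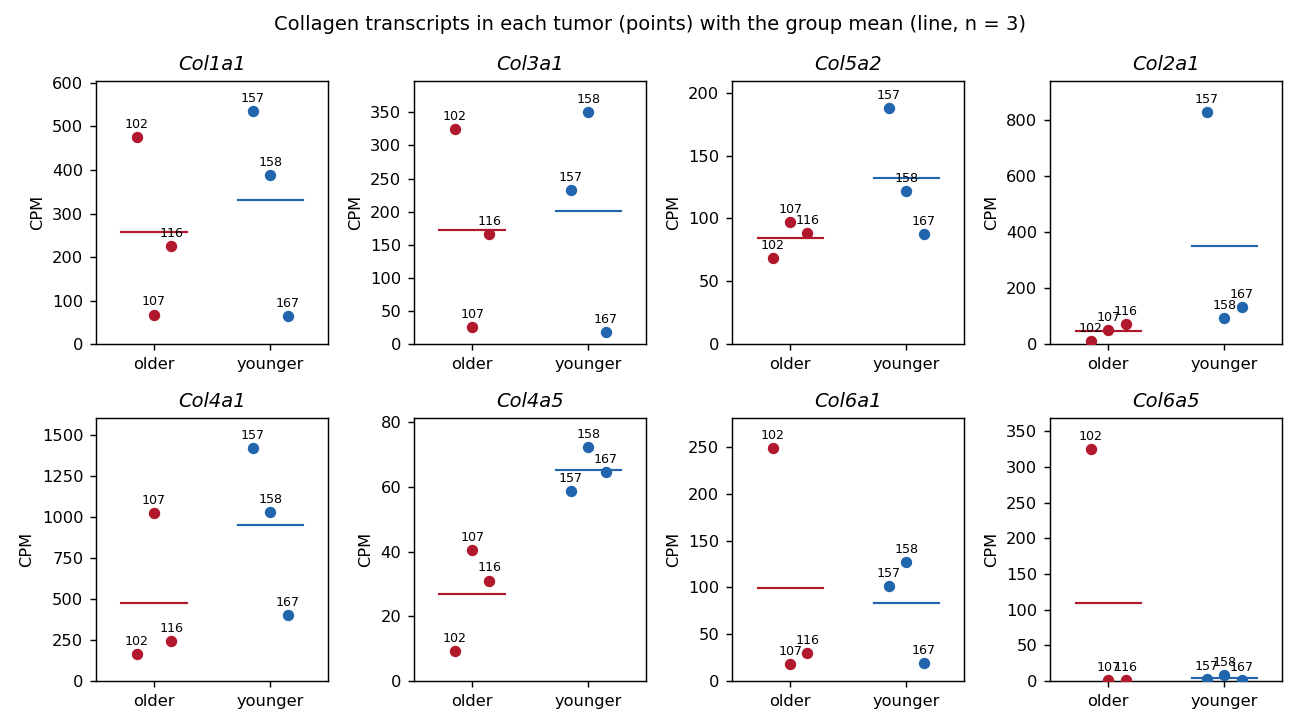
CPM of 8 collagens in each tumor (points, labelled by tumor; red older, blue younger) with the group mean as a line (n = 3); every vertical axis starts at 0. Col1a1 and Col3a1 are low in tumors 107 and 167, Col2a1 is dominated by tumor 157 at 829 CPM, Col6a5 by tumor 102 at 326 CPM, and Col4a5 is at most 40.5 CPM in older and at least 58.7 CPM in younger tumors.

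Type IV collagen, the network former of basement membranes, is encoded by gene pairs that lie head to head. Its common chains, Col4a1 and Col4a2, share a start region in which the starts lie 77 bases apart on opposite strands, and the promoter windows below overlap over 176 bases. The starts of Col4a5 and Col4a6, chains of a more restricted network, lie 1415 bases apart. The promoters of both pairs are shown because these genes had low values in the same older tumors, with that of Col1a2 as a fibrillar counterpart. The starts of Col4a3 and Col4a4 lie 413 bases apart, and their windows overlap over 88 bases. That pair did not share the low values and is not shown. The windows run from 250 bases before to 50 bases after the start, 5′ to 3′ on the gene's strand, from RefSeq on build GRCr8, which is not the build of the counts (mRatBN7.2), and capitals mark a CCAAT box (CCAAT), a GC box (GGGCGG) or a TATA box (TATAAA) on either strand.
Col4a1 (chr16:84885347-84885646, plus strand): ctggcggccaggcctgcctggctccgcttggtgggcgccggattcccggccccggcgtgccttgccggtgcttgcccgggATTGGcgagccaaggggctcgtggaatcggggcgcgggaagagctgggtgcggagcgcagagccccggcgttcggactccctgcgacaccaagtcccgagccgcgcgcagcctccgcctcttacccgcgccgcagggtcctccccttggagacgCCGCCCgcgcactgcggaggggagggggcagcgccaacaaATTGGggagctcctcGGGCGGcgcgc
Col4a2 (chr16:84885471-84885770, minus strand): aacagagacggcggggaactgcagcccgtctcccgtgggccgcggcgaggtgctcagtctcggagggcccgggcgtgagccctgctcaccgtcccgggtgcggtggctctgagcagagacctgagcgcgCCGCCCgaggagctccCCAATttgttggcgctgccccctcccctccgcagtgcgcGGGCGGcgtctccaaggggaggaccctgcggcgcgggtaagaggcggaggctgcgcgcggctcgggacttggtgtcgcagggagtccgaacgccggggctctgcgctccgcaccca
Col4a5 (chrX:109907109-109907408, plus strand): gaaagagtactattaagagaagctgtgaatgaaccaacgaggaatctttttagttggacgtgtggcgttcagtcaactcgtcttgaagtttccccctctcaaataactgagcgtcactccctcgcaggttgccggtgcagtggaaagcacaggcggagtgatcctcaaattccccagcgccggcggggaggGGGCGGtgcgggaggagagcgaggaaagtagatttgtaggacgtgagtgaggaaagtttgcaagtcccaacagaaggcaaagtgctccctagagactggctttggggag
Col4a6 (chrX:109905895-109906194, minus strand): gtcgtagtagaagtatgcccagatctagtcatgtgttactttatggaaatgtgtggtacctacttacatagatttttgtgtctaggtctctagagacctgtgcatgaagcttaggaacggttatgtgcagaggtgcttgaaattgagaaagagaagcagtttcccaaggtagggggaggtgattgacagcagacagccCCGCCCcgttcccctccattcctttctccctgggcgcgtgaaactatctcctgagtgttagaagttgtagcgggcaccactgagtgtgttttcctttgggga
Col1a2 (chr4:33518307-33518606, plus strand): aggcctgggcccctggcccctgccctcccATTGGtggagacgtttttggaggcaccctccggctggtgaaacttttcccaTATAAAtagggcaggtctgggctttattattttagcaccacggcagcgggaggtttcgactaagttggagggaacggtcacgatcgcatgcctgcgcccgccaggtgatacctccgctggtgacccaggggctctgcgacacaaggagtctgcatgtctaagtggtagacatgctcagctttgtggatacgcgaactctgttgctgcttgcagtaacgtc

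Of these windows, those of Col4a1 and Col4a2 each held 2 GC boxes, those of Col4a5 and Col4a6 each held 1, and that of Col1a2 held 0. Col1a2 held the only TATA box, at base -170 from its start, and within a window the matches did not overlap each other. The 2 GC boxes and the 1 CCAAT box of Col4a2 lie in the bases shared with Col4a1. They are the same sites as matches in the Col4a1 window, read on the opposite strand. Of the 44 collagens, 35 had a window in the table. A GC box was found in 54.3% of these and in 33.1% of all 33469 windows, a CCAAT box in 31.4% and 37.5%, and a TATA box in 11.4% and 14.2%. A match is a match of letters and not a bound site.

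Col4a1 was at 162 CPM in tumor 102, 1025 in tumor 107 and 242 in tumor 116, and at 1422 in tumor 157, 1030 in tumor 158 and 404 in tumor 167. Col4a2 was at 121, 462 and 121 CPM in older tumors 102, 107 and 116 and at 716, 496 and 199 CPM in younger tumors 157, 158 and 167. The groups overlapped for both, because older tumor 107 lay beside the younger tumors 157 and 158. The log2 fold change was -0.9997 for Col4a1 and -1.003 for Col4a2 (SEs 0.75 and 0.66, adjusted p = 0.824 and 0.786, edgeR). Without tumor 107 the values were -2.24 and -1.96, without tumor 102 -0.60 and -0.70, and without tumor 157 -0.60 and -0.57.

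Col4a5, an X-linked chain, was at 9.30, 40.5 and 31.0 CPM in older tumors 102, 107 and 116 and at 58.7, 72.2 and 64.7 CPM in younger tumors 157, 158 and 167. It was the only type IV chain whose age groups did not overlap, and its younger values were the closest together. The log2 fold change was -1.27 (SE 0.48, unadjusted p = 0.0308, adjusted p = 0.504, edgeR), between -1.68 and -0.87 with 1 tumor left out, and the unadjusted p was above 0.05 without tumor 116, 157, 158 or 167 (0.0547, 0.052, 0.0698 and 0.0614). Its neighbor Col4a6 was at 2.75, 6.82 and 4.41 CPM in older tumors and at 6.54, 14.7 and 7.90 CPM in younger tumors, with an overlap of tumors 107 and 157 and a log2 fold change of -1.04 (SE 0.51).

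Col4a3 and Col4a4, the chains of the network found in kidney and a few other basement membranes, did not share the low values in older tumors. Col4a3 was at 3.10, 11.1 and 11.4 CPM in older tumors and at 2.65, 9.77 and 8.15 CPM in younger tumors, a log2 fold change of 0.34 (SE 0.65). Col4a4 was at 15.8, 18.4 and 16.6 CPM in older tumors and at 11.5, 29.7 and 10.6 CPM in younger tumors, a log2 fold change of -0.03 (SE 0.45). The age groups overlapped for both.

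The multiplexins, proteoglycan-like collagens of basement membrane zones, were lower on average in older tumors without passing the test. Col18a1, from which the fragment endostatin is cut, was at 33.4, 151 and 86.3 CPM in older tumors 102, 107 and 116 and at 234, 164 and 112 CPM in younger tumors 157, 158 and 167. Its log2 fold change was -0.91 (SE 0.53, adjusted p = 0.745, edgeR). Only older tumor 107 lay within the younger range. Col15a1 ranged from 27.6 to 36.5 CPM in older tumors and from 8.89 to 70.4 CPM in younger ones.

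Of the noncollagen partners of basement membranes (15 laminin, nidogen, perlecan, agrin and Sparc genes, all tested), 12 had a log2 fold change below 0, beside 50.4% of all genes, with a median of -0.65. At an unadjusted p under 0.05, beside 3.29% of all genes that were lower, were Lama3, a laminin chain of epithelial basement membranes, and Sparc, a collagen-binding matrix protein, both lower in older tumors and neither past the adjusted threshold. Lama3 was at 61.6, 141 and 60.5 CPM in older tumors 102, 107 and 116 and at 309, 144 and 368 CPM in younger tumors 157, 158 and 167, without overlap (log2 fold change -1.64, SE 0.47, adjusted p = 0.359, edgeR). Sparc was at 182, 511 and 328 CPM in older tumors and at 757, 829 and 593 CPM in younger tumors, also without overlap (-1.09, SE 0.40, adjusted p = 0.492).

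Markers of cells that lie on basement membranes moved with the type IV values in part. The summed level of 5 basal and myoepithelial markers (Krt5, Krt17, Tp63, Oxtr and Cnn1) was 97.4, 771 and 414 CPM in older tumors 102, 107 and 116 and 1177, 743 and 669 CPM in younger tumors 157, 158 and 167. That of 7 pericyte and smooth muscle markers was 552 to 2654 CPM in older and 1575 to 2002 CPM in younger tumors, with tumors 102 and 116 far below the rest. Most of it came from Acta2 and Myh11. In tumor 102 these genes, Tagln and Rgs5 were below all younger tumors. Mcam (81.9 CPM) and Des (19.3 CPM) were above all younger tumors there, and Cspg4 (13.8 CPM) lay within the younger range. The summed level of 7 endothelial markers was 116 to 433 CPM in older and 81.7 to 335 CPM in younger tumors, with tumors 116 and 167 the lowest. Tumor 102, the lowest for Col4a1, had the highest endothelial sum (433 CPM). Tumor 157, the highest for Col4a1, had 268 CPM. For 7 luminal and pan-epithelial markers the sum was 1418 to 1504 CPM in older and 1817 to 2057 CPM in younger tumors, without overlap. Of these 7 markers, 3 lay wholly below in older tumors, beside 5.58% of all genes. Krt14 of the basal list and Krt19 of the epithelial list had no named row in the count table. All other members of these lists had counts. Their unadjusted p (edgeR) was under 0.05 for 0 of 5, 1 of 7 (Des), 1 of 7 (Tek) and 0 of 7 genes, beside 8.59% of all genes tested. Des and Tek were both higher in older tumors (log2 fold changes 3.44 and 1.38). The part of these cell types in the type IV values was not tested.

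Some chains that are made to be assembled together kept close ratios across tumors. The ratio of Col1a1 to Col1a2 counts was between 1.76 and 2.51 in the 6 tumors, while each chain alone varied over 8-fold. The ratio of Col4a1 to Col4a2 was 2.22 in tumor 107, 2.00 in tumor 116, 1.99 in tumor 157, 2.08 in tumor 158 and 2.03 in tumor 167, but 1.34 in tumor 102 (95% exact interval 1.16 to 1.54, from 470 and 351 counts and covering counting error only). The ratio of Col6a1 to Col6a2 was between 0.738 and 1.22, while Col6a1 alone spanned 13.5-fold. Other partner chains did not keep a close ratio. Col6a3, a further type VI chain, had 394 counts beside 723 of Col6a1 in tumor 102, but 350 beside 81 in tumor 107. Col4a3 had 9 counts beside 46 of Col4a4 in tumor 102, but 33 beside 43 in tumor 167. These ratios depend on chain length as well as on the transcripts and are compared between tumors only.

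The other ratios computed varied more, whether or not the chains can join in 1 molecule. The ratio of Col3a1 to Col1a1 ran from 0.282 in tumor 167 to 0.903 in tumor 158, that of Col5a1 to Col5a2 from 0.125 in tumor 116 to 0.437 in tumor 102, and that of Col8a1 to Col8a2 from 0.235 in tumor 107 to 2.24 in tumor 157. The ratio of Col4a1, for basement membrane, to Col1a1, for stroma, spanned 44.1-fold, from 0.341 in tumor 102 to 15.0 in tumor 107, both from older rats, and was 1.07 in tumor 116 and 2.65, 2.65 and 6.16 in younger tumors 157, 158 and 167. The age groups overlapped for each of the 7 ratios computed, and no test was run on them.

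**Figure D4:**
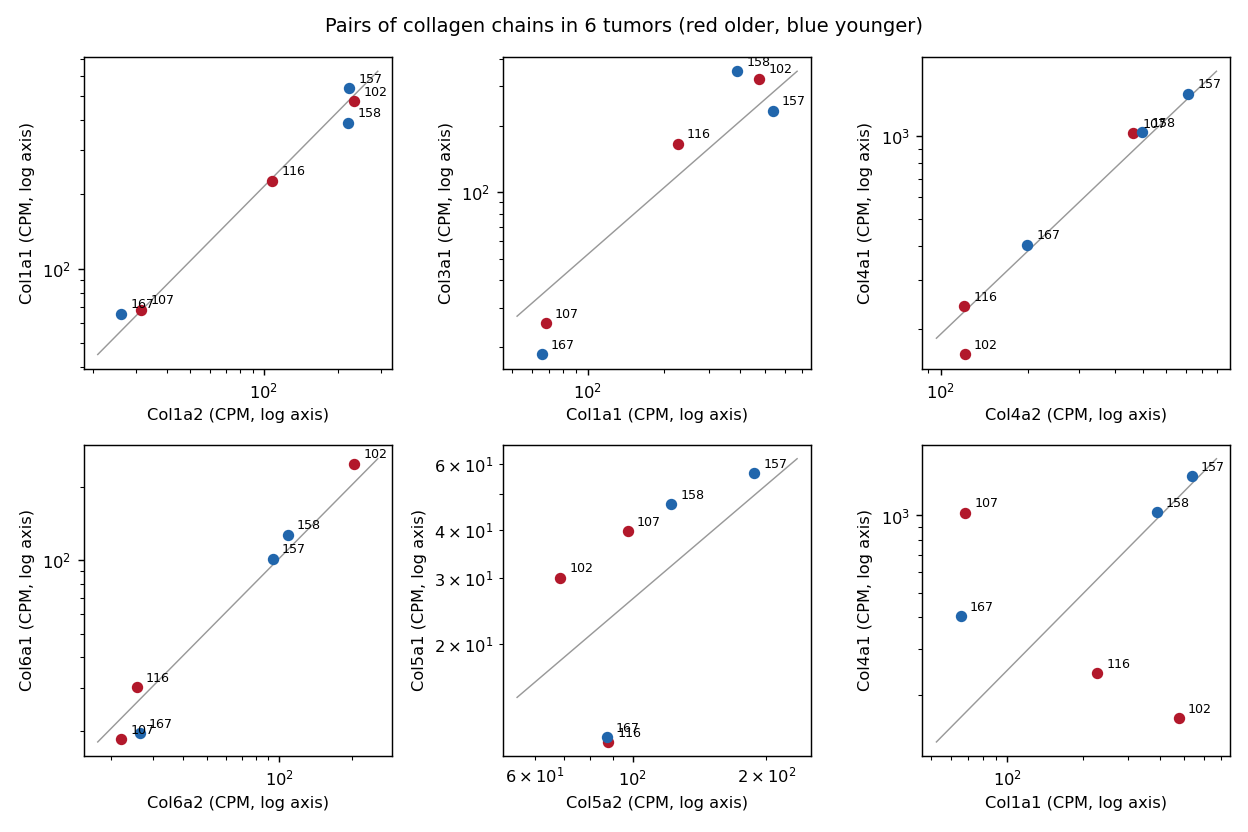
CPM of 6 pairs of collagen chains in the 6 tumors on log axes (points labelled by tumor, red older, blue younger), with a grey line at the geometric mean ratio. Col1a1 and Col1a2, and Col4a1 and Col4a2 apart from tumor 102, follow the line, whereas Col4a1 and Col1a1 scatter over a 44.1-fold range of ratios.

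Type VI collagen, which forms beaded filaments between fibrils and cells, was marked by tumor 102. Col6a1 was at 248.9, 18.4 and 30.2 CPM in older tumors 102, 107 and 116 and at 102, 127 and 19.5 CPM in younger tumors 157, 158 and 167. Col6a2 was at 205, 22.05 and 25.6 CPM in older tumors and at 93.9, 108 and 26.4 CPM in younger tumors. Older tumor 102 was the highest of all for both chains, while the other older tumors lay with younger tumor 167. Their log2 fold changes were 0.25 and 0.13 (SEs 1.02 and 0.90), and -1.78 and -1.69 without tumor 102.

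Col6a3, the long chain that completes the classical filament, was at 136, 79.6 and 34.4 CPM in older tumors and at 196, 152 and 37.0 CPM in younger tumors, a log2 fold change of -0.63 (SE 0.66). Col6a6, a chain that resembles it, was at 86.1, 22.3 and 8.81 CPM in older tumors and at 27.2, 19.0 and 11.4 CPM in younger tumors, with tumor 102 again the highest. The sharpest case was Col6a5, with 946 counts (326 CPM) in tumor 102 but 5 in tumor 107 and 3 in tumor 116, and 12, 44 and 3 counts in younger tumors 157, 158 and 167. Its log2 fold change of 4.87 (SE 2.13, adjusted p = 0.59, edgeR) was -2.08 without tumor 102. DESeq2 gave Col6a5 a log2 fold change of 4.91 but no p-value. The sum of 6 adipocyte markers was also highest in tumor 102, at 189 CPM, against 10.6 to 42.0 CPM in the other 5 tumors. Its part in the type VI values was not tested.

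Among the fibril-associated collagens, which coat fibrils without forming them, Col14a1 and Col12a1 had the most counts. Col14a1 was at 145, 856 and 406 CPM in older tumors 102, 107 and 116 and at 374, 347 and 514 CPM in younger tumors 157, 158 and 167, with tumors 102 and 107 at both extremes and a log2 fold change of 0.19 (SE 0.57). Col12a1 was at 81.9, 65.0 and 86.9 CPM in older tumors and at 205, 166 and 69.4 CPM in younger tumors. Younger tumor 167 lay within the older range, and the log2 fold change was -0.91 (SE 0.39, unadjusted p = 0.0502, adjusted p = 0.579, edgeR), between -1.26 and -0.60 with 1 tumor left out. Col9a2 was the third collagen without overlap, at 6.54 to 7.41 CPM in older and 8.15 to 19.3 CPM in younger tumors (log2 fold change -0.92, SE 0.42, adjusted p = 0.613). Like Col2a1, it was highest in tumor 157, whereas Col9a1 was highest in tumor 116 and Col9a3 in tumor 158.

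Col17a1 and Col7a1 belong to the attachment of epithelium to its base, Col17a1 as a transmembrane chain of hemidesmosomes and Col7a1 as the chain of anchoring fibrils. Col17a1 was at 57.5, 427 and 69.7 CPM in older tumors and at 285, 211 and 74.8 CPM in younger tumors, a log2 fold change of -0.04 (SE 0.82). The highest and the lowest value were both from older tumors. Col7a1 ranged from 5.51 CPM in tumor 102 to 105 CPM in tumor 158. The remaining other collagens that were tested had adjusted p-values of at least 0.722 and log2 fold changes from -1.04 (Col23a1) to 0.90 (Col25a1).

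Before collagen can assemble, its chains are hydroxylated and glycosylated in the endoplasmic reticulum, and afterwards the ends are cut off and the fibrils crosslinked. Of 32 listed genes for these steps, 30 were tested. Of these, 21 had a log2 fold change below 0, beside 50.4% of all genes, and the median was -0.38. At an unadjusted p under 0.05 were 7 lower and 1 higher in older tumors, beside 3.29% and 5.3% of all genes. None passed the adjusted threshold. Together with the receptor, degradation and basement membrane partner lists, 11 of 58 genes (19%) had an unadjusted p under 0.05, 9 of them lower and 2 higher, beside 8.59% of all genes tested. With 1 tumor left out this count ran from 7 without tumor 157 (5.85% of all genes in that fit) to 15 without tumor 107 (8.28%). DESeq2 called 7 of the 58 at an adjusted p under 0.05, beside 0.814% of all genes lower and 1.67% higher: P4ha1, P3h2, Tll1, Loxl2 and Lama3, lower in older tumors, and Adamts14 and Ctsk, higher.

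P4ha1, a catalytic subunit of the prolyl 4-hydroxylase that stabilizes the collagen helix, was at 54.1, 36.6 and 42.5 CPM in older tumors 102, 107 and 116 and at 98.5, 86.5 and 94.8 CPM in younger tumors 157, 158 and 167. The groups were well apart, with a log2 fold change of -1.07 (SE 0.24, adjusted p = 0.271, edgeR; 0.0104, DESeq2). P3h2, a prolyl 3-hydroxylase that acts on type IV collagen among others, was at 3.79, 5.23 and 15.2 CPM in older tumors and at 29.3, 33.7 and 43.7 CPM in younger tumors, a log2 fold change of -2.11 (SE 0.53, adjusted p = 0.315, edgeR; 0.0111, DESeq2). Here too the groups did not overlap. The lysyl hydroxylase gene Plod1 was at 90.2, 123 and 96.1 CPM in older tumors and at 315, 239 and 119 CPM in younger tumors, where tumors 107 and 167 overlapped (-1.12, SE 0.37, adjusted p = 0.426). P4ha2 and the galactosyltransferase gene Colgalt2 had log2 fold changes of -1.44 and -2.06 (SEs 0.61 and 0.71), Colgalt2 at 0.20 to 4.52 CPM.

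Of the genes that act outside the cell, Loxl2, a lysyl oxidase-like crosslinking enzyme, was at 34.1, 21.4 and 23.8 CPM in older tumors 102, 107 and 116 and at 61.5, 49.2 and 64.4 CPM in younger tumors 157, 158 and 167 (log2 fold change -1.15, SE 0.28, adjusted p = 0.315, edgeR; 0.0236, DESeq2). Tll1, a tolloid-like protease that removes the C-terminal ends of procollagen, was at 8.26, 0.455 and 2.60 CPM in older tumors and at 31.3, 21.5 and 43.4 CPM in younger tumors (-3.15, SE 0.81, adjusted p = 0.326, edgeR; 0.00503, DESeq2). Both were without overlap. Adamts14, which removes the N-terminal ends, went the other way, with 17.9, 23.6 and 13.8 CPM in older tumors and 2.30, 0 and 0.741 CPM in younger tumors (4.13, SE 0.91, adjusted p = 0.271, edgeR; 7.99e-05, DESeq2). With 1 tumor left out, DESeq2 called Adamts14 in all 6 fits and Tll1 in 4, but P4ha1, P3h2, Loxl2, Lama3 and Ctsk in only 2 each.

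The crosslinking enzyme Lox and the chaperone Serpinh1, which binds the collagen helix, were not among these genes. Lox was at 35.8, 0.682 and 2.60 CPM in older tumors and at 6.72, 11.6 and 0.494 CPM in younger tumors, low in tumors 107 and 167 as types I and III were. Serpinh1 had a log2 fold change of -0.41 (SE 0.55). Of 10 collagen receptor genes 7 were tested and 0 had an unadjusted p under 0.05, and Gp6, the platelet receptor, had no count. The median log2 fold change of the receptor genes was -0.27. Of 7 degradation genes 6 were tested, with a median of -0.014, and Ctsk, the lysosomal collagenase cathepsin K, was at 141 CPM in tumor 102 and at 3.95 to 14.02 CPM in the other 5. Its log2 fold change was 3.23 (SE 1.10, adjusted p = 0.441, edgeR), and DESeq2's value without tumor 102 was 0.82 and did not pass.

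**Figure D5:**
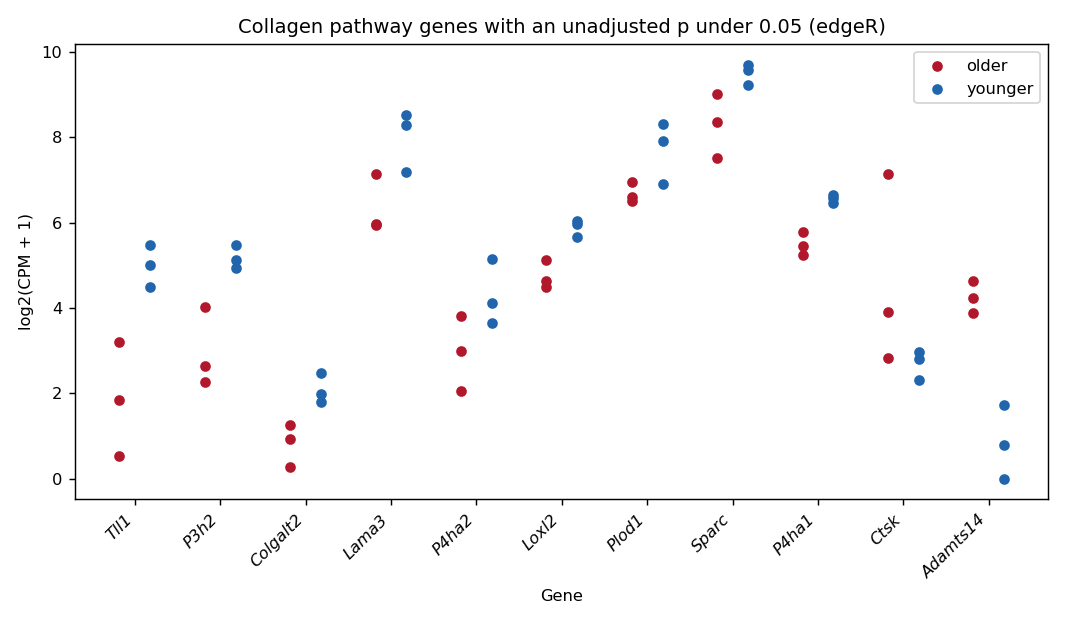
The 11 collagen pathway genes with an unadjusted p under 0.05 (edgeR), as log2(CPM + 1) in each tumor (red older, blue younger), ordered by log2 fold change from Tll1 (-3.15) to Adamts14 (4.13). Tll1, P3h2, Loxl2 and P4ha1 are lower in all older than in all younger tumors, and Adamts14 is higher.

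Macrophages take up and degrade collagen. The summed level of 6 macrophage markers was 181 to 333 CPM in older and 83.9 to 129 CPM in younger tumors, with 4 of 6 higher in older tumors at an unadjusted p under 0.05, beside 5.3% of all genes, and none past the adjusted threshold. Of these 4, Cd163 was at 59.6 CPM in tumor 102 and at 2.80 CPM in tumor 116, below the 3.36 CPM of younger tumor 157, and C1qa, which was not among them, was lowest of all tumors in older tumor 102 (19.3 CPM). Their part in the collagen and enzyme values was not tested.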

How the data were processed

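RNA was measured in 6 mammary tumors, 3 per age group, from total RNA of frozen tissue. The authors used FastQC 0.11.7 for quality control, Trimmomatic 0.38 for adapter removal, STAR 2.7.9a for alignment and Picard 2.18.12 to mark duplicates, and deposited read counts per gene from HTSeq 0.13.5, without normalization. Build mRatBN7.2 comes from the submitters' processing notes; the annotation, the strand setting and whether marked duplicates were counted are not given in the sources used here. A read length of 100 bases and polyA RNA stand in the sample labels, against 150 bases and ribosomal RNA depletion in the protocols. Spike-ins were added before library preparation, but 0 rows carry a spike-in name, so scaling rests on rat genes. A gene's count depends on its length, so levels were compared between tumors only, and without a known strand setting reads of overlapping antisense genes cannot be told apart.

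Columns were matched to samples by tumor number, and 0 columns were left unused. Rows without a gene name (4367 of 30562, with 2.17% to 3.64% of counts) were left out of library sizes and tests. Counts were filtered with edgeR's filterByExpr (13139 rows left), scaled by TMM and compared by edgeR's quasi-likelihood test (edgeR 4.0.16, limma 3.58.1, R 4.3.3) without covariates, with Benjamini-Hochberg adjustment over all rows tested and a threshold of 0.05. Standard errors were calculated back from the F statistic. Overlap of the age groups was read from log2 CPM with a prior count of 2. Alternatives were DESeq2 1.42.0 (size factors, and its Wald test), library totals, TMM without collagen rows, leaving out the 10 most abundant genes, limma-voom, a minimum of 10 counts in every tumor, a minimum of 1 count in any tumor, a prior count of 0.5, a narrower basement membrane class and leaving out each tumor. Keeping the unnamed rows, the ratios and pathway counts with a tumor left out, and DESeq2 with a tumor left out were added after seeing the data. The statistics were tested on simulated data.

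Values in every tumor were printed for the tested members of types I, III, IV, V and VI, the 10 collagens with the highest mean CPM and those with an unadjusted p under 0.05; of the pathway and marker lists, genes with an unadjusted p under 0.05 and the opening genes of a list could be named. Acan, Comp, Matn3, Sp7, Ibsp, Runx2, Bglap, Lox, Serpinh1, Gp6, Krt8, Dcn, Thy1, Pdgfrb, Pi16, C1qa, the collagens named outside these groups and the pairs of tumors pointed out were chosen with their values known. The collagens and the lists were chosen with earlier results of these data known. Totals of 3508571 to 6525830 counts limit the precision of members near 3 counts, and intervals cover counting error only. DNA sequencing and nuclei of the study were not used here.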

Additional observations from a re-analysis of the deposited data

How the results depend on the processing

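No paired analysis was possible because older and younger tumors share no tumor number. The count of collagens past the adjusted threshold, 0 (2 at an unadjusted p under 0.05), remained 0 in each of the 6 edgeR fits that left out 1 tumor and under the other settings except DESeq2's Wald test, with 1, which also called 7 pathway genes. The cause was not tested. The count at an unadjusted p under 0.05 was 4 with library totals alone, 4 with at least 10 counts in every tumor, 4 with at least 1 count in any tumor, and from 1 to 8 with 1 tumor left out; the pathway count ran from 7 to 15. The median of the other collagens was -0.43 with limma-voom and from -0.64 to 0.21 with 1 tumor left out, and -0.041 with type IV alone as basement membrane.

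Of the 22 collagens given in every tumor, 10 kept their sign under every setting run and 12 changed it with 1 tumor left out, with ranges of -1.78 to 0.73 for Col6a1, -1.69 to 0.57 for Col6a2, -1.08 to 0.45 for Col3a1, -1.17 to 0.16 for Col1a1, -1.17 to 0.11 for Col1a2, -2.08 to 6.16 for Col6a5, -1.58 to 0.37 for Col17a1, -0.28 to 0.62 for Col4a4, -0.061 to 0.71 for Col4a3, -0.77 to 0.082 for Col5a3, -0.32 to 1.48 for Col6a6 and -0.58 to 0.61 for Col14a1. Of those that kept it, Col5a1 was at -0.13, Col5a2 at -0.31, Col6a3 at -0.20, Col12a1 at -0.60 and Col2a1 at -1.29 without tumor 157, Col18a1 at -0.52 without tumor 102 and Col4a6 at -0.61 without tumor 158. Limma-voom turned Col6a1 to -0.43, Col6a2 to -0.53, Col4a4 to 0.12 and Col14a1 to -0.15, and library totals turned Col6a2 to -0.015. The count of collagens without overlap was 3 under the other scalings and prior count run. Depth limits the 7 untested collagens and members near 3 counts, such as Col6a5 outside tumor 102.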

Other observations

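Among the 7 collagens with too few counts to test, 2 had most of theirs in younger tumor 158, and both were picked with their values known. Col22a1, a collagen of tissue junctions, had 98 of its 121 counts there and between 0 and 11 in each other tumor. Col6a4, a further type VI chain, had 31 of 36 counts there and at most 2 in each other tumor. The other 5, Col13a1, Col19a1, Col24a1, Col26a1 and Col28a1, had between 5 and 19 counts over all tumors.

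Of the remaining marker lists, 4 skeletal muscle genes summed to 6.01 to 54.3 CPM in older and 16.5 to 25.5 CPM in younger tumors, and 4 Schwann cell genes to 221 to 384 CPM in older and 150 to 466 CPM in younger tumors, most of it from Sox10, which mammary epithelium also expresses. None of the tested genes of these lists or of the adipocyte list had an unadjusted p under 0.05.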
